A study of Homo sapiens with 10 samples.

Results

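The joint action of a CDK4/6 inhibitor and an XPO1 inhibitor was examined gene by gene as a 2 by 2 design in the human liver cancer lines PLC and 97H. The design takes 8 of the 10 libraries of the series, chosen because these lines have all 4 treatments. Per line they are the combination of both inhibitors, the CDK4/6 inhibitor alone, the XPO1 inhibitor alone and the vehicle control, with 1 library each. The other 2 libraries, from Huh7, have no XPO1 inhibitor arm and were left out. KPT330 (selinexor) is the XPO1 inhibitor, by the sample titles. Neither the compound that inhibits CDK4/6 nor doses and times are given in these sources, and nothing states that the libraries of a line came from parallel cultures.

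With cyclin D, the kinases CDK4 and CDK6 phosphorylate the retinoblastoma protein, which in its unphosphorylated form holds back E2F transcription factors and with them the genes of DNA synthesis. XPO1 is the nuclear export receptor that carries proteins with a leucine-rich export signal, and some RNAs, out of the nucleus. Genes of G2 phase and mitosis are switched on later in the cell cycle by B-MYB and FOXM1, and their promoters often carry CCAAT boxes and the cell cycle genes homology region, a short element bound by the DREAM and MuvB complexes.

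The departure from additivity of a gene in a line is log2(FPKM + 1) of the combination, minus that of the CDK4/6 inhibitor, minus that of the XPO1 inhibitor, plus that of the control. FPKM is the fragment count of a gene relative to its transcript length and to the depth of the library. A departure of 0 means that the log2 differences of the single inhibitors from control add up to that of the combination, and a departure of -1 means a combination level 2-fold under that sum on the FPKM + 1 scale. Departures are called below or above the sum by their sign, and departures beyond 1 in either direction are counted as past 2-fold. Of 20030 genes in the table, 10221 averaged at least 1 FPKM over the 8 libraries and were tested.

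In each line every departure rests on 4 single libraries, so a within-line value has no replicate error. The 2 lines served as replicates in limma, fitted to the 8 libraries with 3 residual degrees of freedom. PLC libraries correlated with each other at 0.918 to 0.976 across genes. Levels of 9 hepatocyte markers were at 1 FPKM or more for 9 of 9 in each PLC library and for 7 or 8 of 9 in the 97H libraries. Of 20 markers of other cell types 2 or 3 reached 1 FPKM in PLC and 6 to 8 in 97H, where the biliary keratin KRT19 stood at 404 to 634 FPKM. The leukocyte genes PTPRC and CD3E and the natural killer cell gene NKG7 were at 0 or under 0.04 FPKM in all 8, but other genes of that list were not. LYZ, a lysozyme of myeloid cells, had 91.8 FPKM with the combination in PLC, 52.6 under the CDK4/6 inhibitor, 234 under the XPO1 inhibitor and 17.8 in the control. CD68, of macrophages, had 22.7 to 126.6 FPKM in PLC, and CD79A, of B cells, 8.61 to 42.7 FPKM in 97H. The summed level of the 20 was 220.4 FPKM with the combination in PLC, 119 under the CDK4/6 inhibitor, 260.5 under the XPO1 inhibitor and 42.4 in the control, and 830.1, 730.0, 496 and 549 FPKM in 97H. Their part in the results was not tested. Values of 14033 to 14871 genes per library were above 0 FPKM, and the absolute depth is unknown.

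The libraries differ in how levels depend on the GC content of the transcript. Across 10199 genes with a known GC content, the level in the PLC control relative to the other PLC libraries rose with GC content (Spearman rho 0.61), while rho was -0.65 for the PLC CDK4/6 inhibitor library, -0.68 for the PLC XPO1 inhibitor library and 0.29 for the PLC combination. In 97H the signs of the CDK4/6 inhibitor library and the control were turned round, with rho 0.68 for the CDK4/6 inhibitor, -0.02 for the XPO1 inhibitor, -0.04 for the combination and -0.53 for the control. These coefficients describe genes that share the same libraries. Whether GC content or the treatments set these trends cannot be told apart with 1 library per line and treatment, so departures are given before and after a smooth GC-content trend was removed from each library.

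Genes that build DNA and divide chromosomes lay furthest below the sum of the single inhibitors in both lines. RRM2, the small subunit of ribonucleotide reductase, stood at 1.31 FPKM with the combination in PLC, against 28.3 under the CDK4/6 inhibitor, 27.4 under the XPO1 inhibitor and 27.0 in the control. In 97H it stood at 2.41 FPKM with the combination, 18.5 under the CDK4/6 inhibitor, 19.1 under the XPO1 inhibitor and 36.2 in the control. In PLC both single-inhibitor libraries lay at the control level, whereas in 97H both lay below the control, close to each other. If the log2 differences had added, the combination would have stood at 28.8 FPKM in PLC and 9.57 FPKM in 97H. The departure of RRM2 was -3.69 in PLC and -1.63 in 97H, and -2.45 and -2.19 after the GC-content correction. Over both lines limma gave -2.66 (SE 0.57, unadjusted p = 0.000818, n = 2 lines), with an adjusted p of 0.999853.

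limma called 0 of 10221 genes for the interaction at an adjusted p under 0.05 (0%), with 62 at an unadjusted p under 0.05, 59 of them below the sum and 3 above. After the GC-content correction it called 0 of 10199 (0%), with 160 at an unadjusted p under 0.05, 123 below and 37 above, and a smallest adjusted p of 0.999945. The values that follow are therefore descriptions of these 8 libraries, and no single departure passed the test. The median standard error of the mean departure over both lines was 0.55 before and 0.36 after the correction.

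12 genes were taken as the lower set, those with the same sign in both lines before and after the correction whose smaller departure of the 2 lines after correction was the largest below the sum. By GENCODE 29 on GRCh38, RRM2 spans chr2:10120698-10131419, MYBL2 chr20:43667019-43716496, BIRC5 chr17:78214186-78225636 and PLK1 chr16:23677656-23690367. The set is RRM2, MYBL2, HJURP, BIRC5, TYMS, PLK1, LMNB1, SKA1, KIF20A, KIF2C, ASF1B and CDCA3. CDCA3 was the last inside, at -1.52 in PLC and -1.48 in 97H after correction, and UBE2C, a ubiquitin-conjugating enzyme of mitotic exit, was the next outside, at -1.65 and -1.47. Over the 12 the median difference of the combination from control was -3.04 in PLC, against a median sum of the single inhibitors of -0.53. In 97H the same medians were -2.96 for the combination and -1.34 for the sum. Because the 12 were chosen for departures below 0 in these same libraries, refits show their range and give no independent support. In all 8 fits that left out 1 library the mean departure of each of the 12 genes was below 0, between -3.05 and -2.27 for RRM2 and between -2.12 and -1.28 for PLK1. The widest range was that of HJURP, between -3.59 without the 97H control and -1.23 without the PLC control. SKA1 ranged between -2.77 and -1.15, with the same libraries left out, and TYMS between -3.10 without the 97H combination and -1.61 without the PLC combination.

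**Figure D1:**
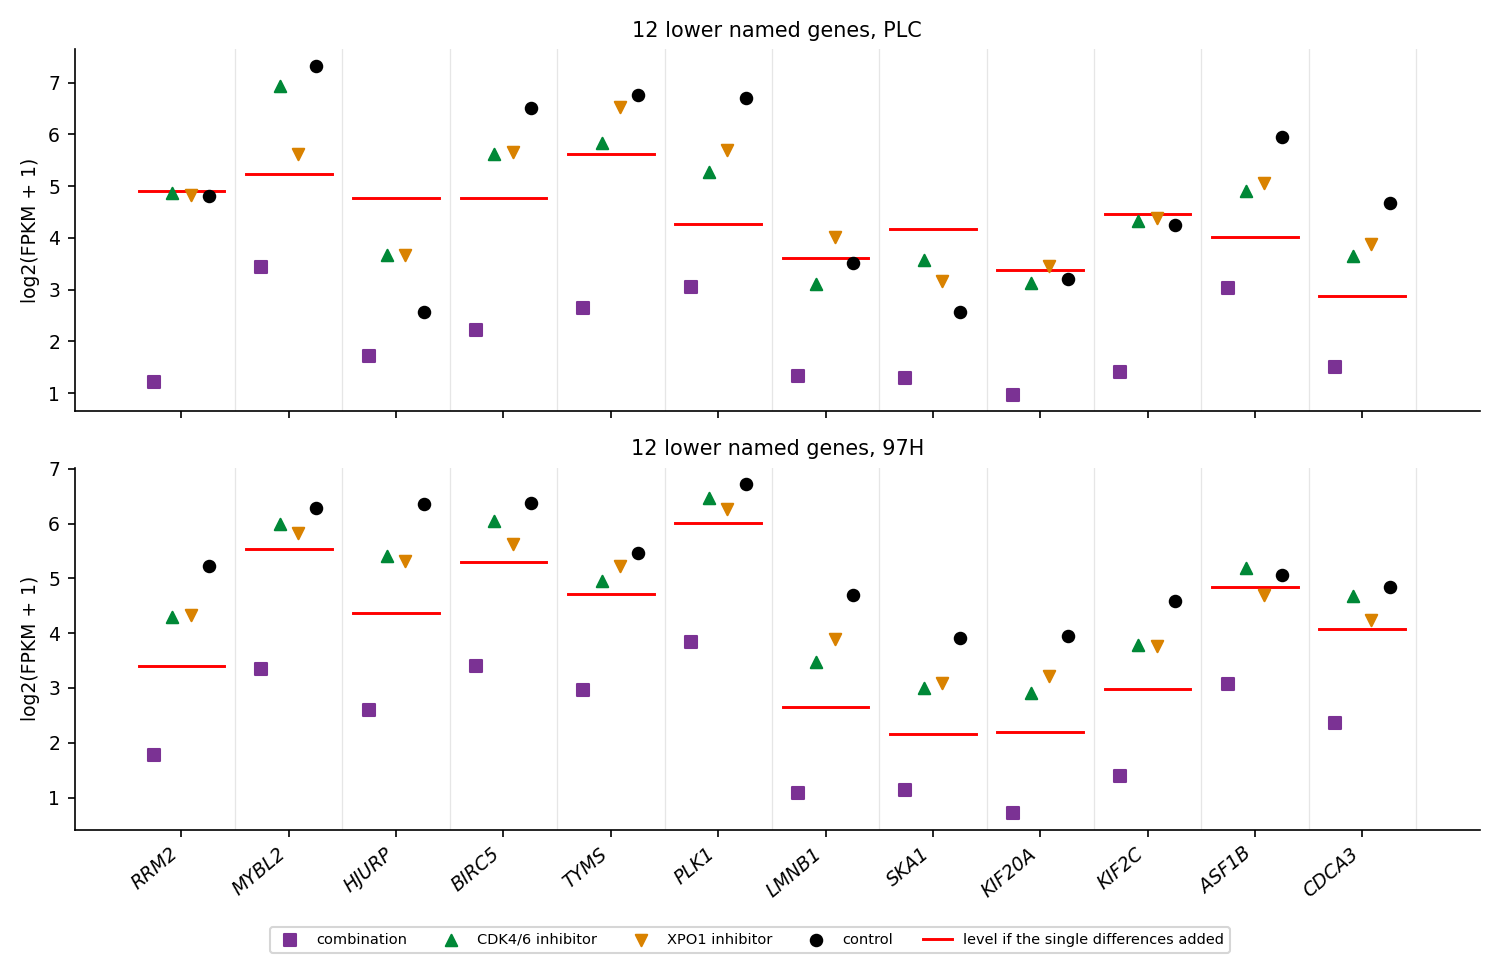
Levels of the 12 genes of the lower set in each library, as log2(FPKM + 1), for PLC (upper panel) and 97H (lower panel). From left to right each gene has the combination, the CDK4/6 inhibitor, the XPO1 inhibitor and the control, 1 library each, and the red line marks where the combination would lie if the single differences added. The combination lies under its line for all 12 genes in both lines.

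Among the transcription factors, MYBL2 (B-MYB, which switches on G2 and mitotic genes) stood in PLC at 9.86 FPKM with the combination, 121 under the CDK4/6 inhibitor, 48.2 under the XPO1 inhibitor and 159.6 in the control. Its 97H levels were 9.13 FPKM with the combination, 62.7 under the CDK4/6 inhibitor, 55.4 under the XPO1 inhibitor and 76.6 in the control. The combination was the lowest library in both lines, and the departure was -1.79 in PLC and -2.19 in 97H, or -2.43 and -1.91 after correction. FOXM1, the other activator of mitotic genes, had 2.65 FPKM with the combination in PLC, 16.0 under the CDK4/6 inhibitor, 18.8 under the XPO1 inhibitor and 40.4 in the control. Its 97H library values were 9.87, 54.0, 42.2 and 57.9 FPKM in the same order. Its departures of -1.15 and -1.89 became -1.45 and -1.63 after correction.

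TYMS, thymidylate synthase, had 5.25 FPKM with the combination in PLC, 56.3 under the CDK4/6 inhibitor, 91.1 under the XPO1 inhibitor and 107 in the control. In 97H it had 6.80 FPKM with the combination, 29.8 under the CDK4/6 inhibitor, 36.4 under the XPO1 inhibitor and 43.1 in the control. Both single-inhibitor levels lay between the control and the level expected of the sum, and the combination library was the lowest in both lines. The histone chaperone gene ASF1B, which hands histones over behind the replication fork, stood at 7.17 FPKM with the combination in PLC, against 28.9 under the CDK4/6 inhibitor, 32.5 under the XPO1 inhibitor and 60.6 in the control. In 97H it stood at 7.39, 35.5, 25.05 and 32.2 FPKM in that order. Its departure of -0.99 in PLC was the smallest of the 12 before correction.

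In the mitotic group, PLK1 (polo-like kinase 1, which drives mitotic entry) had 7.27 FPKM with the combination in PLC, 37.7 under the CDK4/6 inhibitor, 50.7 under the XPO1 inhibitor and 103 in the control. Its 97H library values were 13.3 FPKM with the combination, 87.2 under the CDK4/6 inhibitor, 76.3 under the XPO1 inhibitor and 104 in the control. The single-inhibitor libraries lay further below the control in PLC than in 97H, and the departure was -1.22 in PLC and -2.18 in 97H. BIRC5 (survivin, a member of the chromosomal passenger complex) had 3.63 FPKM with the combination in PLC, 48.0 under the CDK4/6 inhibitor, 49.8 under the XPO1 inhibitor and 90.4 in the control. Its 97H levels were 9.59, 65.4, 48.6 and 82.4 FPKM in that order, and its departures -2.56 and -1.90. HJURP, the chaperone that loads the centromeric histone, differed between the lines in its single-inhibitor values. In PLC it had 2.27 FPKM with the combination, 11.7 under the CDK4/6 inhibitor, 11.7 under the XPO1 inhibitor and 4.96 in the control, and in 97H 5.03, 41.3, 38.8 and 80.9 FPKM. Both single libraries lay above the control in PLC and below it in 97H, while the combination was the lowest library in each, and the departure was -3.05 and -1.77.

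The kinesin gene KIF2C (a microtubule depolymerase at centromeres) had 1.67 FPKM with the combination in PLC, against 18.1 to 19.8 in the other 3 libraries. In 97H it had 1.62 FPKM with the combination, 12.8 under the CDK4/6 inhibitor, 12.7 under the XPO1 inhibitor and 23.0 in the control. KIF20A, a kinesin of cytokinesis, had 0.955 FPKM with the combination in PLC and 7.73 to 9.95 in the others, and 0.641 FPKM in 97H against 6.48 to 14.3. For both kinesins the combination was the lowest library in each line. SKA1, a kinetochore protein, had 1.43 FPKM with the combination in PLC against 4.89 to 10.9 in the others, and 1.19 FPKM in 97H against 6.97 to 14.1. CDCA3, an adaptor that brings the mitotic inhibitor WEE1 to destruction, had 1.83 FPKM with the combination in PLC against 11.6 to 24.5, and 4.15 FPKM in 97H against 17.9 to 27.7. LMNB1 (lamin B1, of the nuclear lamina) had 1.52 FPKM with the combination in PLC against 7.60 to 15.1, and 1.12 FPKM in 97H against 10.2 to 25.1. In these cell populations, fewer cycling cells and less of these RNAs per cell cannot be told apart.

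Scale matters to what counts as additive. On the FPKM scale itself, where differences in FPKM rather than ratios would add, 9 of the 12 departures in PLC and 7 of the 12 in 97H kept their sign. Of all genes past 2-fold below the sum before correction, 2981 of 2990 kept it in PLC (99.7%) and 153 of 162 in 97H (94.4%). The sign thus depended on the scale more often in the lower set than among those genes. The departure turned positive for RRM2 in 97H (0.938 FPKM), HJURP in 97H (5.88), LMNB1 in 97H (2.26), SKA1 in 97H (0.827), KIF20A in 97H (0.160), PLK1 in PLC (21.8) and CDCA3 in PLC (0.907), and also for ASF1B in PLC (6.39).

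Promoters of 5 genes are shown because their sequences bear the elements named above and these genes stand at both ends of the ranking. The 300 bases run from 250 before to 50 after the annotated start in RefSeq (GRCh38.p14), and capitals mark matches to TTTGAA, the first form of the cell cycle genes homology region, to CCAAT, and to the E2F motif TTTCCCGC, on either strand. PLK1 lies at chr16:23678639-23678938 on the plus strand, ASF1B at chr19:14136540-14136839 on the minus strand, CDCA3 at chr12:6851237-6851536 on the minus strand, RRM2 at chr2:10122489-10122788 on the plus strand, and SCD, of the upper set described below, at chr10:100346983-100347282 on the plus strand.
PLK1: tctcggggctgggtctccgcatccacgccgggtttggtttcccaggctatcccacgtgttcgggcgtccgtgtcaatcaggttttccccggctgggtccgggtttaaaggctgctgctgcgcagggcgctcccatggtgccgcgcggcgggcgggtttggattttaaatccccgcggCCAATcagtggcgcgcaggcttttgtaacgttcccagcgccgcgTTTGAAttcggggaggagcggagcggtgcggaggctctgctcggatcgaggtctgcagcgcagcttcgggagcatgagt
ASF1B: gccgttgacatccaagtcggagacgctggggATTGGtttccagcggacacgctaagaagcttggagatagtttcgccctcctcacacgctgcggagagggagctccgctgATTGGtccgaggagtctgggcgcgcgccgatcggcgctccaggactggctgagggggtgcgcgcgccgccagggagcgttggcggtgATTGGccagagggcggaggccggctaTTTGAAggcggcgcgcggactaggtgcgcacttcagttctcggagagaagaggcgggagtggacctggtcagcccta
CDCA3: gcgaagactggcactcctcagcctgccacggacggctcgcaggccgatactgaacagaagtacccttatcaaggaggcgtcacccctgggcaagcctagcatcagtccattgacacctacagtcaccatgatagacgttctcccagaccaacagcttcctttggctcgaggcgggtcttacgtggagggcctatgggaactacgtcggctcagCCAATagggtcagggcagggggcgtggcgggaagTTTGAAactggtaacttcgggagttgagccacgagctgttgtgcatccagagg
RRM2: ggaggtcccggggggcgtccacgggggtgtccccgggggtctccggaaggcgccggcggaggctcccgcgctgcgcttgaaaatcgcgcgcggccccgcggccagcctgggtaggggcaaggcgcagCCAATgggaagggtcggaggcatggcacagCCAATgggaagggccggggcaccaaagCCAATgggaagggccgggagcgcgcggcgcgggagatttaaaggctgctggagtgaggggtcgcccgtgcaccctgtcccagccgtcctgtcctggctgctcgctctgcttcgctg
SCD: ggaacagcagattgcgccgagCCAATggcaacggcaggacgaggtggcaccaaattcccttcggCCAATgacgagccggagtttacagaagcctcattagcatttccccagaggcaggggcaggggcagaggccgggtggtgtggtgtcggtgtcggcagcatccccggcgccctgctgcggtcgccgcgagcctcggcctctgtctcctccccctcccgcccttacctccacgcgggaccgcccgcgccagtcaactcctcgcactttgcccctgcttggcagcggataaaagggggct

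In PLK1 the TTTGAA begins 29 bases before the start and the CCAAT 73 bases before it. ASF1B has TTTGAA at -27 and 3 CCAAT matches on the opposite strand, at -53, -140 and -219. CDCA3 has TTTGAA at -3 and CCAAT at -37. RRM2 has 3 CCAAT matches, at -123, -93 and -66, and no TTTGAA in this window, and SCD has 2 CCAAT matches and no TTTGAA. Promoters were found for 11 of the 12 lower genes, and TTTGAA stood in 5 of the 11 (also HJURP and SKA1), against 0 of the 9 promoters found for the upper set. Among the 33 genes past 2-fold below the sum in both lines after correction, 26 had a promoter and 14 of them (53.8%) held TTTGAA, against 768 of 8439 promoters of tested genes (9.10%) and 15.4% of all 27305 promoters of that table. CCAAT stood in 18 of the 26 (69.2%) and in 37.0% of the tested genes' promoters. Between the 2 named sets CCAAT differed little, with 6 of the 11 lower promoters (54.5%) and 4 of the 9 upper ones (44.4%). The second form of the element, TTCGAA, stood in 1 of the 26 and in 1.74% of the tested genes, TTTCCCGC in 3 and 2.77%, its open form TTTNNCGC (which includes it) in 4 and 11.03%, and TATAAA in 0 and 5.40%. A match of letters is a description of the sequence and not a measured binding site.

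Counted over both lines, 33 of 10221 genes were past 2-fold below the sum before correction (0.323%) and 3 past 2-fold above it (0.0294%). After correction the numbers were 33 of 10199 below (0.324%) and 4 above (0.0392%). 22 genes were below in both lines before and after, among them all of the lower set except ASF1B. The 11 that joined after correction are ASF1B, CCNB2 (cyclin B2), CDCA5 (sororin), the kinesins KIF18B, KIF4A and KIFC1, PTTG1 (securin), the spindle proteins TACC3 and TPX2, TROAP and WDR76. The 11 counted only before are AURKB (the kinase of the passenger complex), the origin and helicase genes ORC1, MCM3 and GINS2, TK1 and DTYMK (both of thymidine nucleotide supply), NCAPH (a condensin subunit), FAM83D, TCF19, CASC10 and MYL9 (a myosin light chain). Of the 33 after correction, 32 had a combination level under both the control and the sum in both lines.

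Lists of cell-cycle genes described the same pattern. 7 lists, of transcription factors, DNA replication, nucleotide supply, mitotic entry, centromere, spindle and homologous recombination genes, hold 163 genes, of which 148 were tested. Their median departure was -1.41 in PLC and -0.58 in 97H, against -0.20 and 0.01 over the other 10051 genes. After correction it was -0.81 in PLC and -0.69 in 97H, against 0.02 and 0.00. Departures were negative in both lines for 83 of the 148 before (56.1%) and 107 after correction (72.3%), against 14.8% and 18.2% of the other genes. The 148 include 26 of the 33 genes below the sum past 2-fold in both lines after correction, which is 78.8% of the 33 and 17.6% of the 148. Under a median ratio scaling and under quantile normalization the medians of the 148 stayed negative, at -1.02 and -1.16 in PLC and at -0.78 and -0.69 in 97H, where the median of all genes moved to 0.03 in PLC under both and to -0.14 and -0.07 in 97H. The median GC content of the 148 was 47.7%, against 50.7% of the others. The 7 lists were chosen with earlier results of these data known, and leave out the replication-dependent histone genes. Those had medians of 0.33 (PLC) and -0.30 (97H) before correction and of 0.40 and -0.42 after it.

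In each of the 7 lists the PLC median lay further below 0 than the 97H median before correction. Kinesin, spindle, condensin and cytokinesis genes had medians of -2.37 (PLC) and -0.80 (97H) before correction and of -1.52 and -0.83 after it, and 9 of 25 were past 2-fold below in both lines after correction. Centromere and passenger complex genes had -2.01 and -0.33 before, and -1.06 and -0.73 after, with CDCA8 (borealin) at -1.20 in PLC and -1.41 in 97H. Mitotic kinases, cyclins and cyclin degradation factors had -1.69 and -0.23 before, and -0.89 and -0.70 after. CCNB2, for example, had 5.20 FPKM with the combination in PLC, 29.5 under the CDK4/6 inhibitor, 28.3 under the XPO1 inhibitor and 28.04 in the control. Its departure in 97H was -0.86 before and -1.16 after correction.

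Of 39 tested genes of DNA replication 30 were negative in both lines after correction, and medians were -0.9996 in PLC, -0.85 in 97H before and -0.76 and -0.75 after. ORC6, a subunit of the origin recognition complex, was at -1.75 in PLC and -1.29 in 97H after correction, and CDC45, of the replicative helicase, at -1.09 and -1.38. Nucleotide supply genes had medians of -1.23 and -0.36 before, and -0.59 and -0.45 after, with TK1 (thymidine kinase) at -2.70 in PLC and -0.98 in 97H after correction. Homologous recombination genes had -1.74 and -0.10 before, and -0.64 and -0.45 after, where RAD54L was at -1.11 and -1.30, and the nuclease gene EXO1 at -0.77 and -0.95. The 10 tested transcription factors had -1.11 and -0.54 before, and -0.34 and -0.84 after, with E2F2 at -1.09 and -0.83. Without the filter on low genes this last median was 0.04 in 97H and that of the recombination genes 0.08.

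**Figure D2:**
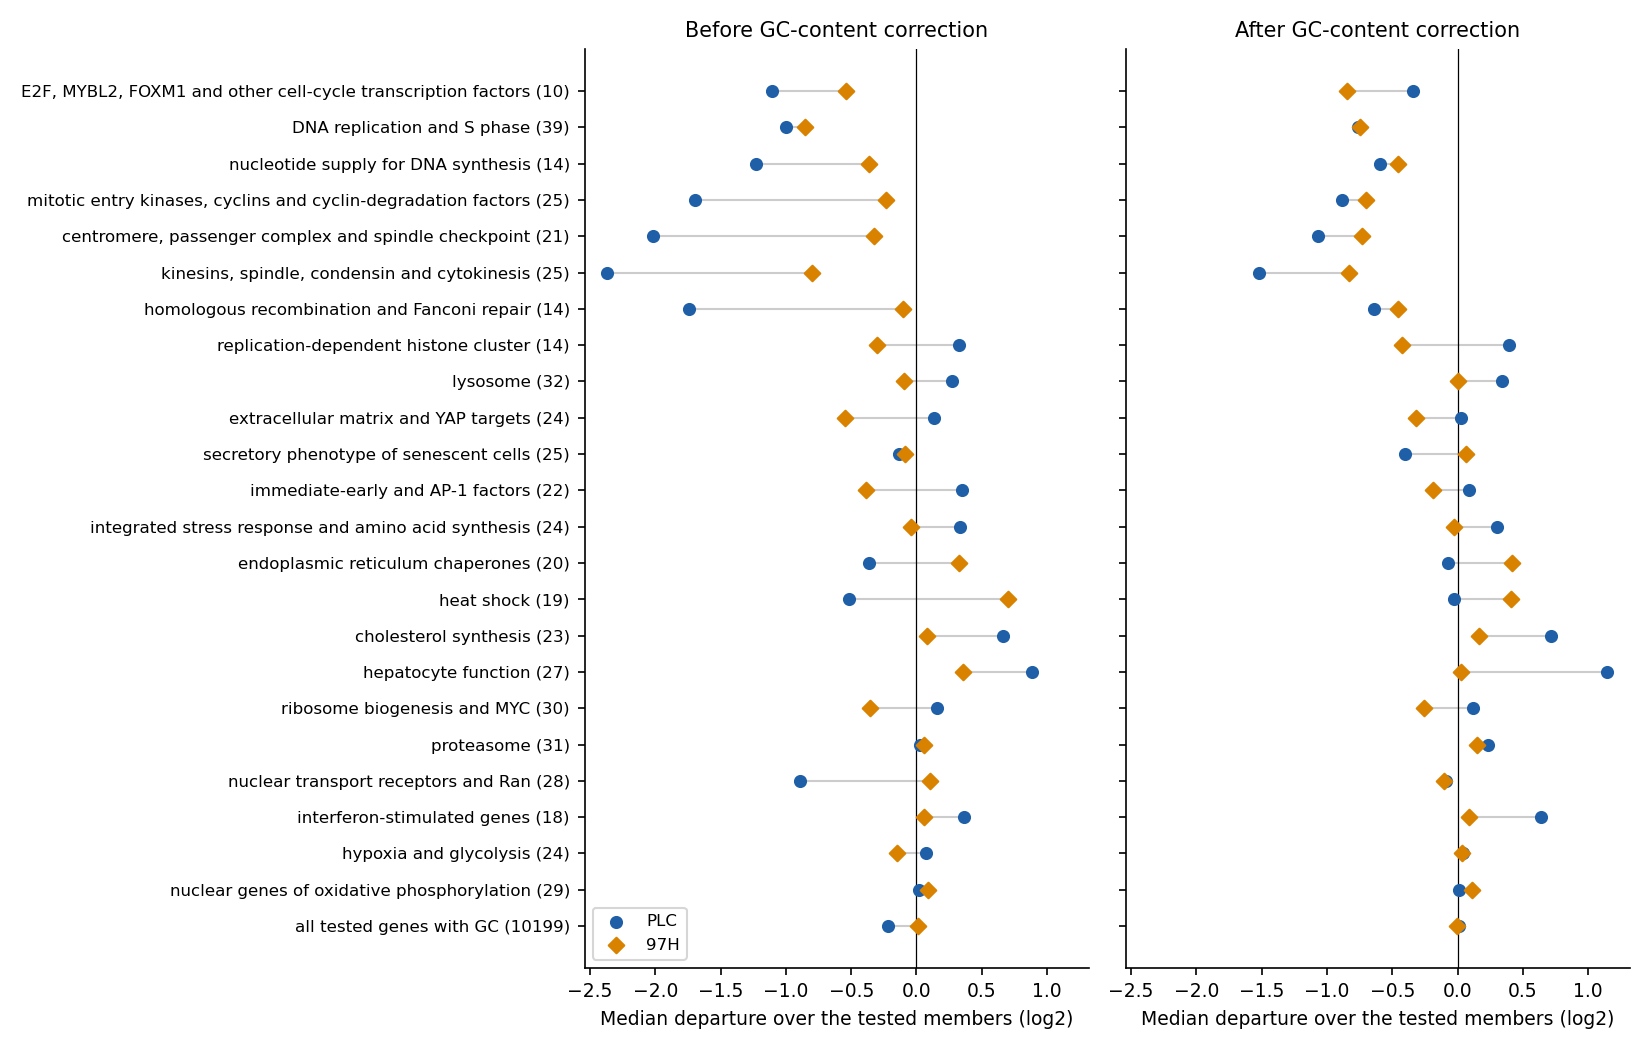
Median departure from additivity of each gene list in PLC (circles) and 97H (diamonds), before (left) and after (right) GC-content correction, in log2, with the number of tested genes in brackets. The 7 cell-cycle lists at the top lie below 0 in both lines in both panels, and after correction most of the other lists lie nearer 0 or differ between the lines.

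Across all genes the 2 lines departed from additivity mostly in opposite directions. In PLC the median departure was -0.21 with quartiles of -1.16 and 0.46, and 2990 genes were past 2-fold below the sum (29.3%) against 1141 above (11.2%). In 97H the median was 0.01 with quartiles of -0.29 and 0.47, and 162 genes were past 2-fold below (1.58%) against 901 above (8.82%). Across genes the departures of the lines had a Spearman rho of -0.68. They were past 2-fold below in PLC and above in 97H for 787 genes (7.7%), and above in PLC and below in 97H for 58 (0.567%). The sign was shared by 24.3% of genes. Of the 2990 genes below the sum in PLC, 189 had a combination level under the control and further from it than the sum, and for 2801 the combination differed from control by no more than the sum did.

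These opposite departures ran along GC content. The departure had a rho of 0.81 with transcript GC content in PLC and -0.66 in 97H. In the fifth of genes with the lowest GC content (31.8% to 42.3%) the median departure was -1.48 in PLC and 0.73 in 97H, and in the fifth with the highest (59.4% to 75.6%) it was 0.80 and -0.24. The rank correlation with GC content was larger in size for the single-inhibitor differences than for that of the combination. In PLC the rho with GC content was -0.29 for the combination against control, -0.68 for the CDK4/6 inhibitor and -0.72 for the XPO1 inhibitor. In 97H it was 0.26 for the combination, 0.73 for the CDK4/6 inhibitor and 0.47 for the XPO1 inhibitor. Each control enters all 3 differences of its line.

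**Figure D3:**
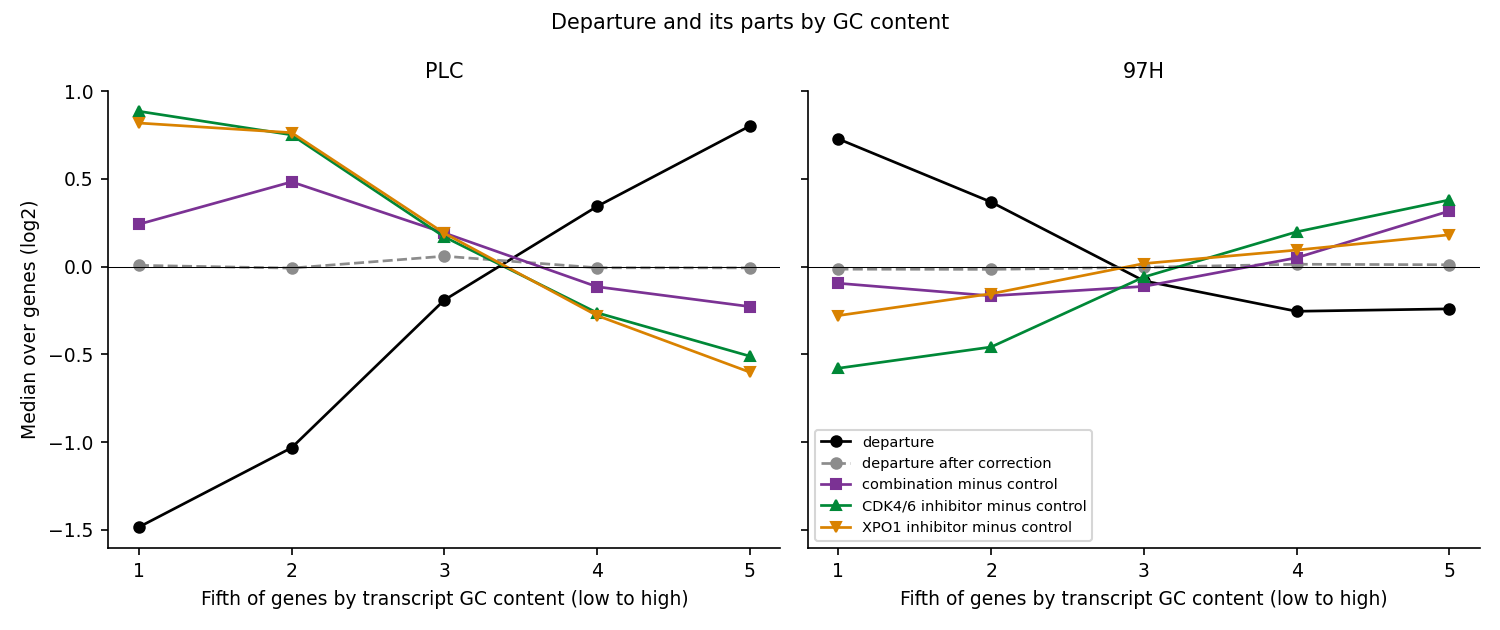
Median over genes of the departure from additivity, before (black) and after (grey, dashed) GC-content correction, and of the differences of each treatment from control, in log2, in 5 equal groups of genes ordered by transcript GC content, for PLC (left) and 97H (right). The black line runs between -1.48 and 0.80 in PLC and between 0.73 and -0.25 in 97H, and the grey line lies near 0.

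After the correction the spread of departures was smaller, with an SD across genes of 0.68 in PLC against 1.11 before, and of 0.43 in 97H against 0.59. In PLC 690 genes were then past 2-fold below (6.77%) and 666 above (6.53%), and in 97H 142 below (1.39%) and 146 above (1.43%). The rho between the lines was -0.33, and 38.5% of genes shared their sign. Past 2-fold in opposite directions were 65 genes below in PLC and above in 97H (0.637%) and 44 the other way (0.431%). Among the 148 cell-cycle genes the rho between the lines was -0.38 before and 0.22 after correction, and over the other genes -0.70 and -0.35.

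**Figure D4:**
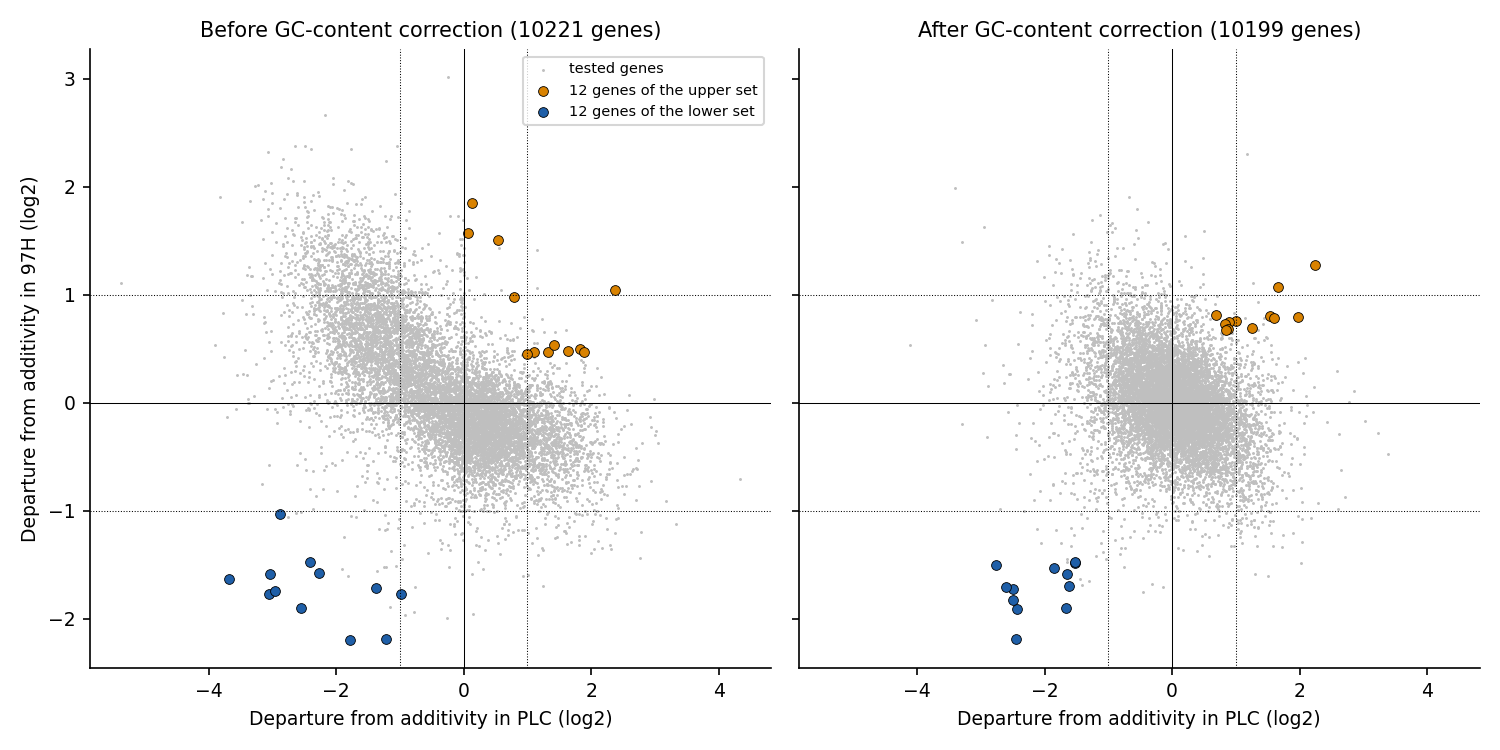
Departure from additivity of each tested gene in 97H (vertical) against PLC (horizontal), in log2, before (left) and after (right) GC-content correction. Dotted lines mark 2-fold, blue points are the 12 genes of the lower set and orange points the 12 of the upper set, which were chosen by these values. The cloud of all genes slopes downwards in both panels, and the blue points lie apart from it at the lower left.

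Single genes with opposite departures in the lines are given next. DDX6, an RNA helicase of P-bodies with a GC content of 39.99%, had 10.2 FPKM with the combination in PLC, 20.1 under the CDK4/6 inhibitor, 19.9 under the XPO1 inhibitor and 3.71 in the control. Its 97H library values were 10.9 FPKM with the combination, 3.23 under the CDK4/6 inhibitor, 5.01 under the XPO1 inhibitor and 9.75 in the control. The single inhibitor libraries lay above the others in PLC and below them in 97H, and the departure was -3.07 in PLC and 2.33 in 97H, or -1.56 and 1.56 after correction. ARPP19, an inhibitor of the phosphatase PP2A at mitotic entry, went the same way, at -2.96 and 1.63 after correction. SLX1B, a nuclease subunit with a near-identical copy in the genome, was at -3.41 and 1.99, and its reads cannot be assigned with certainty. Above the sum in PLC and below it in 97H after correction lay AREG (amphiregulin, a ligand of the EGF receptor) at 1.51 and -1.60, C12orf45 at 2.03 and -1.48, and PROSER1 at 1.72 and -1.34. Before correction their departures were smaller, at 0.52 and -1.24, 0.57 and -0.75, and 0.82 and -1.04 in that order. With GC-content and length correction C12orf45 was at 1.63 and -1.19. AREG levels were 86.8 FPKM with the combination, 54.4 under the CDK4/6 inhibitor, 51.3 under the XPO1 inhibitor and 46.2 in the control of PLC. In 97H they were 11.4, 38.9, 25.9 and 35.7 FPKM in that order, so the combination was the highest library in PLC and the lowest in 97H.

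Of genes past 2-fold in both lines, fewer lay above the sum than below it, as counted earlier. The upper set by the same rule has 12 genes, of which 11 are described, namely POLR2J3, SCD, ALB, FLRT3, ADAMTSL4, BORCS6, IRF9, APOA2, PC, SERPINA1 and SELENOO, and SELENOO was the last inside at 0.84 in PLC and 0.68 in 97H after correction, with CACFD1 next at 0.94 and 0.65. SCD, the stearoyl-CoA desaturase, had 774 FPKM with the combination in PLC, 515 under the CDK4/6 inhibitor, 511 under the XPO1 inhibitor and 591 in the control. In 97H it had 119.7 FPKM with the combination, 124 under the CDK4/6 inhibitor, 59.3 under the XPO1 inhibitor and 122 in the control. The combination was the highest library in PLC, and in 97H it lay at the control level while the XPO1 inhibitor library alone was low. The departure was 0.80 in PLC and 0.98 in 97H, and 1.53 and 0.81 after correction (mean 1.17, SE 0.43, limma unadjusted p = 0.0268, n = 2 lines).

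SERPINA1 (alpha-1 antitrypsin, a secreted protease inhibitor of the liver) had 1380.3 FPKM with the combination in PLC, 1759 under the CDK4/6 inhibitor, 662 under the XPO1 inhibitor and 1673 in the control. Its 97H levels were 3.74, 5.56, 1.65 and 4.02 FPKM in that order. In both lines the XPO1 inhibitor library was the lowest and the combination lay near the control, and the departures were 0.99 and 0.45. APOA2, an apolipoprotein of high-density lipoprotein, also had its XPO1 inhibitor library lowest in both lines, with 99.98 FPKM in PLC under the combination, 429.9 under the CDK4/6 inhibitor, 44.6 under the XPO1 inhibitor and 487 in the control. Its 97H levels were 4.29, 3.36, 2.22 and 2.68 FPKM. ALB, the serum albumin gene, had 3.29, 4.80, 4.44 and 9.74 FPKM in PLC and 15.8, 2.32, 5.11 and 2.42 FPKM in 97H, and its mean departure of 1.03 (SE 0.99) became -0.02 without the PLC control and -0.34 without the 97H combination library. For APOA2 the mean departure of 0.90 became -0.18 without the PLC XPO1 inhibitor library and -0.18 without the PLC control.

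PC (pyruvate carboxylase) had 10.5 FPKM with the combination in PLC, 5.89 under the CDK4/6 inhibitor, 8.16 under the XPO1 inhibitor and 13.6 in the control, and 14.2, 12.02, 8.75 and 11.1 FPKM in 97H. IRF9, which carries the interferon signal to DNA, had 9.62, 11.8, 14.8 and 40.03 FPKM in PLC and 6.25, 3.40, 3.68 and 2.94 FPKM in 97H. The combination was the lowest library in PLC and the highest in 97H. The mean departure of IRF9, 0.79, became -0.26 without the PLC control and -0.05 without the 97H combination library. ADAMTSL4, a secreted matrix protein, had 11.3 FPKM with the combination in PLC and 2.13 to 2.35 in the other 3 libraries, and 1.05 FPKM in 97H against 0.0494 to 0.256. It was highest with the combination in both lines. BORCS6, of the complex that positions lysosomes, and SELENOO, a mitochondrial selenoprotein, had departures of 1.64 and 1.88 in PLC and of 0.48 and 0.47 in 97H.

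Low levels stand behind 2 of the upper genes. FLRT3, a cell adhesion protein, had 0.0209 to 0.0688 FPKM over the PLC libraries. Its PLC departure of 0.07 became 1.60 after correction only through the subtracted GC-content curve. In 97H FLRT3 had 7.91 FPKM with the combination, 1.797 under the CDK4/6 inhibitor, 3.35 under the XPO1 inhibitor and 3.05 in the control. POLR2J3, a subunit gene of RNA polymerase II with near-identical copies whose reads cannot be assigned with certainty, had 1.013 FPKM with the combination in PLC, near 0 in both single-inhibitor libraries and 1.59 in the control. With genes required to average at least 1 FPKM in each line, 0 genes were past 2-fold above the sum in both lines after correction and 33 below, a filter chosen after the data had been seen.

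**Figure D5:**
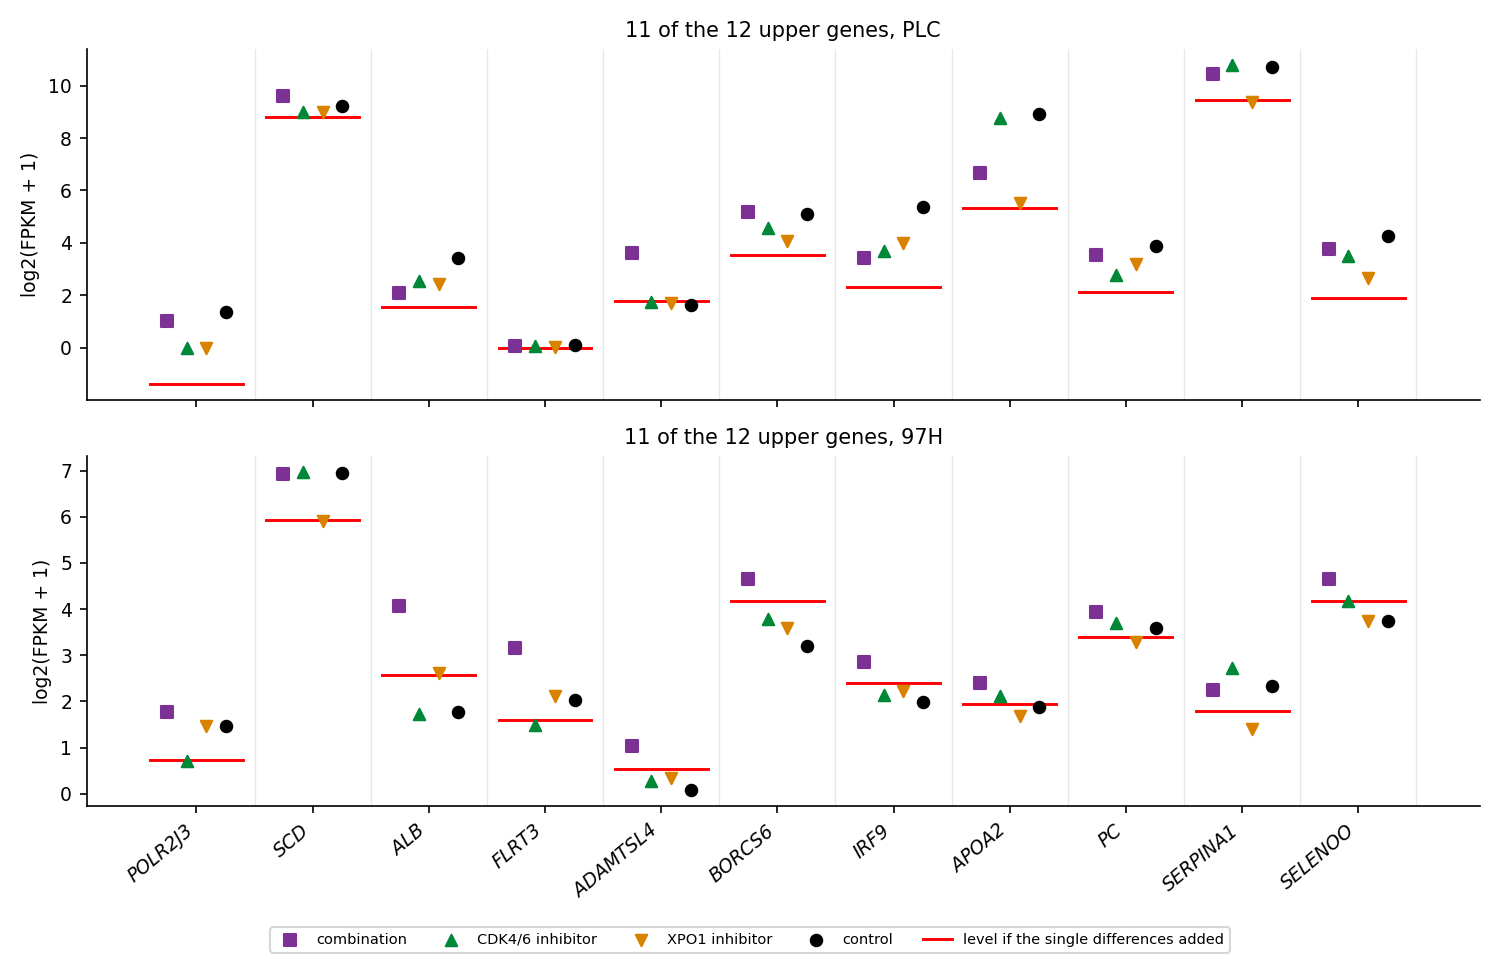
Levels of 11 of the 12 genes of the upper set in each library, as log2(FPKM + 1), for PLC (upper panel) and 97H (lower panel). Each gene has the combination, the CDK4/6 inhibitor, the XPO1 inhibitor and the control from left to right, 1 library each, and the red line marks the level at which the single differences would add. FLRT3 lies near 0 in all 4 PLC libraries.

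Among liver and lipid genes, 27 of hepatocyte function had medians of 0.88 (PLC) and 0.36 (97H) before correction and of 1.14 and 0.03 after it, when 26 of 27 were positive in PLC and 15 of 27 in 97H, against 50.6% and 49.9% of all tested genes. The summed level of the 9 hepatocyte markers, which overlap this list, was 4591 FPKM with the combination, 6332 under the CDK4/6 inhibitor, 3395 under the XPO1 inhibitor and 3756 in the control of PLC, and 6813, 3678, 4046 and 2921 FPKM in 97H. Most of the 97H sums came from the keratins KRT8 and KRT18. These had 4328 and 2429 FPKM in 97H with the combination, and 2113 and 785 FPKM in the control. The part of the 9 markers in these departures was not tested. Cholesterol synthesis genes had medians of 0.67 and 0.08 before and of 0.72 and 0.16 after, and 15 of 23 were positive in both lines after correction, against 5 before. Over all tested genes 19.5% were positive in both lines after correction and 8.73% before. MSMO1, a sterol demethylase, was at -0.86 in PLC and 1.78 in 97H before correction and at 0.70 and 0.99 after it. The 97H median of this list was -0.12 under median ratio scaling.

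The targets and their partners are given next. XPO1 itself had 18.1 FPKM with the combination in PLC, 20.6 under the CDK4/6 inhibitor, 48.3 under the XPO1 inhibitor and 8.65 in the control. Its 97H library values were 21.7 FPKM with the combination, 5.71 under the CDK4/6 inhibitor, 19.2 under the XPO1 inhibitor and 15.9 in the control. The XPO1 inhibitor library was the highest in PLC, and in 97H the combination was the highest and the CDK4/6 inhibitor library the lowest. Its departure was -2.53 in PLC and 1.51 in 97H, and -1.007 and 0.73 after correction. CDKN1A (p21, an inhibitor of cyclin-dependent kinases) came close to additive before correction, with 39.4 FPKM with the combination in PLC against 47.4 expected of the sum, and 71.3 FPKM in 97H against 72.3. Its single-inhibitor levels were 13.7 and 16.1 FPKM in PLC, where the control had 4.19, and 44.6 and 42.4 FPKM in 97H, where the control had 26.0. Its departures were -0.26 in PLC and -0.02 in 97H, and -0.65 and 0.26 after correction.

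CCND1 (cyclin D1, the partner of CDK4 and CDK6) had 114 FPKM with the combination in PLC, 144 under the CDK4/6 inhibitor, 84.4 under the XPO1 inhibitor and 38.6 in the control. In 97H it had 98.0, 79.8, 87.9 and 64.8 FPKM, and its departures were -1.45 in PLC and -0.14 in 97H. CCNE1 (cyclin E1, the partner of CDK2) was at -1.37 and -0.91, and at -1.39 and -0.71 after correction (limma mean -1.05, SE 0.39, unadjusted p = 0.0258). CDKN2C (p18, an inhibitor of CDK4 and CDK6) had 4.28 FPKM with the combination in PLC, 11.98 under the CDK4/6 inhibitor, 23.6 under the XPO1 inhibitor and 22.5 in the control, and 0.661, 5.60, 5.42 and 14.3 FPKM in 97H. The combination was lowest in both lines. CDK4 departed by 0.48 in PLC and -0.44 in 97H, CDK6 by -2.31 and 0.67, RB1 by -2.08 and 0.20, CCND3 (cyclin D3) by -0.24 and -0.42 and CDKN1B (p27) by -1.31 and 0.54. After correction RB1 was at -0.51 in PLC and -0.59 in 97H, so that its 97H direction turned. RB1 had only 0.196 to 0.479 FPKM over the 97H libraries, and this turn came only through the subtracted GC-content curve. CCNE2 (cyclin E2) stood at 0.0318 to 0.801 FPKM over the 8 libraries and was not tested. CRBN, the substrate receptor used by degrader drugs, had 2.16 FPKM with the combination in PLC, 3.92 under the CDK4/6 inhibitor, 5.53 under the XPO1 inhibitor and 2.79 in the control, and 2.06, 0.578, 0.933 and 1.12 FPKM in 97H. Its departure of -1.42 in PLC and 1.09 in 97H became -0.08 and 0.45 after correction.

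Heat shock genes had medians of -0.52 (PLC) and 0.70 (97H) before correction and of -0.03 and 0.41 after it, and 17 of 19 were positive in 97H after correction, against 49.9% of all tested genes. HSP90AA1, the inducible cytosolic chaperone HSP90, had 48.9 FPKM with the combination in PLC, 107 under the CDK4/6 inhibitor, 96.8 under the XPO1 inhibitor and 68.6 in the control. Its 97H library values were 150.1, 55.1, 83.0 and 111 FPKM, so the combination was lowest in PLC and highest in 97H, and its departure after correction was -0.60 and 1.47. CRYAB, a small heat shock protein, was at -1.02 and 1.58 after correction, and reached 39.6 FPKM with the combination in 97H, against 1.797 under the CDK4/6 inhibitor, 6.76 under the XPO1 inhibitor and 0.425 in the control. Chaperones of the endoplasmic reticulum had medians of -0.36 and 0.33 before and of -0.08 and 0.42 after, with HSP90B1 (GRP94) at -0.85 and 1.03 and DNAJB9, a co-chaperone, at -0.72 and 0.97. Their PLC median was 0.05 under median ratio scaling.

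Nuclear transport receptors and Ran had medians of -0.90 (PLC) and 0.10 (97H) before correction and of -0.09 and -0.11 after it. TNPO1 (an import receptor) was at -1.31 and 1.398 after correction, and RAN, the GTPase of nuclear transport, at 1.12 and -0.87. Proteasome genes had medians of 0.03 and 0.06 before and of 0.24 and 0.15 after, with the base subunit genes PSMC1 at -0.99 and 1.20 and PSMD1 at -1.69 and 0.99. Of the 31, 7 were negative in PLC and 14 positive in both lines after correction, against 19.5% of all tested genes. Interferon-stimulated genes had 0.36 and 0.05 before and 0.64 and 0.09 after. Extracellular matrix genes and YAP targets had 0.14 and -0.55 before and 0.02 and -0.32 after. After correction the laminin chain LAMA5 was at 1.17 and -1.13 and THBS1 (thrombospondin) at 1.06 and -1.21. THBS1 levels were low in PLC, from 0.0784 FPKM in the control to 1.0101 FPKM with the combination. Its PLC departure was 0.11 before correction, so the value of 1.06 came mostly through the subtracted GC-content curve. Immediate-early factors had 0.35 and -0.39 before and 0.09 and -0.19 after. EGR1 was at 0.64 and -0.92, and FOSL1, an AP-1 subunit, at 0.47 and -1.32.

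Lysosome genes had 0.27 in PLC and -0.10 in 97H before correction and 0.34 and 0.00 after it, with the proton pump subunit ATP6V1A at -1.28 and 1.34 and CTSL (cathepsin L) at -1.05 and 0.48. Of the 32 lysosome genes, 12 were negative in PLC after correction, against 5036 of the 10199 tested genes. ATP6V1A and CTSL were the only 2 past 2-fold below in PLC, and 4 were above, against 6.77% and 6.53% of tested genes. Replication-dependent histone genes had 0.33 and -0.30 before and 0.40 and -0.42 after, and their near-identical copies make single genes uncertain. HIST1H2BG was at 1.58 and -1.32, and HIST1H2AC at 1.65 and -0.60 after correction. Genes of the senescent secretory phenotype had -0.13 and -0.09 before and -0.40 and 0.07 after, those of the integrated stress response 0.33 and -0.04 before and 0.30 and -0.03 after, and ribosome biogenesis genes 0.16 and -0.36 before and 0.12 and -0.26 after. Hypoxia and glycolysis genes had 0.08 and -0.15 before and 0.04 and 0.03 after, and nuclear genes of oxidative phosphorylation 0.02 and 0.09 before and 0.01 and 0.11 after. Several of these medians near 0 changed sign with the scaling. Under median ratio scaling the uncorrected 97H median was -0.15 for proteasome genes, -0.09 for nuclear transport, -0.12 for interferon-stimulated genes and -0.12 for oxidative phosphorylation. With GC-content and length correction the PLC median was -0.11 for matrix genes and 0.03 for heat shock genes, and the 97H median of hepatocyte function was -0.002. Under quantile normalization the PLC median was -0.04 for proteasome genes and -0.08 for oxidative phosphorylation.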

How the data were processed

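RNA from human liver cancer cell lines was sequenced from total RNA taken with Trizol and TruSeq libraries, per the labels' protocols. Per the submitters' processing notes, the tools were CASAVA 1.8.2, STAR 2.4.2g1 and featureCounts (Subread, no version stated), with the build GRCh38. The authors deposited FPKM, and the step from counts to FPKM is not given in the sources used here. Whole reads could not be recovered, so no count model was run and depth is known only relatively (0.864 to 1.05 of the PLC combination library, resting on 3.09% to 6.15% of low genes). No pair of libraries was identical. In 27 entries a symbol turned into a date was restored.

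The interaction was fitted on log2(FPKM + 1) with limma 3.58.1 (R 4.3.3; line as a block, inhibitors and their product, variance trend on expression, two-sided, Benjamini-Hochberg over all tested genes, threshold 0.05), and tested on simulated data. Replicates are cell lines: for control and CDK4/6 inhibitor, number 1 is Huh7, 2 is PLC and 3 is 97H, and for XPO1 inhibitor and combination 1 is PLC and 2 is 97H. Same-line libraries pair by the labels. p-values measure the spread between 2 lines, and whether libraries came from separate cultures is not stated. For the GC-content correction a natural cubic spline with 5 degrees of freedom on transcript GC content (GENCODE 29, GRCh38, 99.8% of tested genes matched) was fitted to each library's deviation from its line's mean and subtracted. Named genes are the 12 lowest and 12 highest by the smaller of both lines' corrected departures with 1 sign throughout, 6 of opposite sign, the target genes, and members of each list by the same measure. Genes, members and lists were chosen with earlier results of these data known. Results of 1 further list and of some target and marker genes are not reported here. Summaries used Python 3.11.15, pandas 2.3.3 and numpy 2.4.6.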

Additional observations from a re-analysis of the deposited data

Results flagged for a closer look

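The results below were picked out because the departures of PLC and 97H, from 4 single libraries each, lay on opposite sides of 0. The difference between the lines was not tested. The trend of the departure with transcript GC content (Spearman rho) was 0.805 for PLC and -0.660 for 97H.

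Before GC-content correction, departures were below the sum in PLC and above it in 97H for SLX1B (-2.45 and 1.77), ARPP19 (-3.83 and 1.90), DDX6 (-3.07 and 2.33), CDK6 (-2.31 and 0.67), RB1 (-2.08 and 0.20), CDKN1B (-1.31 and 0.54), XPO1 (-2.53 and 1.51) and CRBN (-1.42 and 1.09). After correction RB1 no longer had opposite signs (-0.51 and -0.59), but its 97H levels were only 0.196 to 0.479 FPKM. The sterol gene MSMO1 was also below the sum in PLC and above it in 97H before correction (-0.86 and 1.78, but 0.70 and 0.99 after). So were the lysosomal genes ATP6V1A (-2.76 and 2.08) and CTSL (-1.09 and 0.30). Both kept opposite signs after correction, ATP6V1A at -1.28 and 1.34 and CTSL at -1.05 and 0.48. Chaperone genes with this order were CRYAB (-1.10 and 1.41), HSP90AA1 (-1.60 and 1.85), HSP90B1 (-2.19 and 1.67) and DNAJB9 (-2.21 and 1.72). So were the proteasome genes PSMC1 (-1.50 and 1.23) and PSMD1 (-2.83 and 1.47) and the import receptor gene TNPO1 (-2.87 and 2.18).

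Departures were above the sum in PLC and below it in 97H for AREG (0.52 and -1.24), C12orf45 (0.57 and -0.75), PROSER1 (0.82 and -1.04), CDK4 (0.48 and -0.44), HIST1H2BG (1.07 and -1.29), LAMA5 (2.17 and -1.35), THBS1 (0.11 and -0.88), EGR1 (0.92 and -1.18) and FOSL1 (0.93 and -1.60).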

How the results depend on the processing

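limma called 0 genes, and 3 (HIST1H3I, MIA and PPP1R14A) without the filter on low values. Leaving out 1 library gave 0 to 1 calls, the 1 being ANKRD1 (adjusted p 0.0257) without the 97H CDK4/6 inhibitor library. Genes at an unadjusted p under 0.05, 62 with all libraries, numbered 1631 without the 97H control. Without the replicate block, which here is the cell line, 0 genes were called (13 at an unadjusted p under 0.05). Leaving out the block with the GC-content correction also gave 0 calls (19 at an unadjusted p under 0.05).

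Genes past 2-fold below the sum in PLC numbered 2990, but 690 with GC-content correction, 685 with GC-content and length correction, 1579 at 5 FPKM or more and 1843 under quantile normalization. Those above numbered 1141, but 666, 635, 1966 under median ratio scaling and 1767 under quantile normalization. In 97H those below numbered 162, but 369 with a pseudocount of 0.1, 349 under median ratio scaling and 245 under quantile normalization, and those above 901, but 146 and 140 with the corrections, 1593 with that pseudocount and 571 at 5 FPKM or more. In both lines 33 lay below, but 70 with that pseudocount, and 3 above, but 9 with it, 1 at 5 FPKM or more and 1 with 1 FPKM in each line (chosen after seeing the data). Median ratio scaling put the median of all genes at 0.03 in PLC, against -0.21, and at -0.14 in 97H, against 0.01.

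Sign was reversed on the FPKM scale for RRM2 (0.938), HJURP (5.88), LMNB1 (2.26), SKA1 (0.827) and KIF20A (0.160) in 97H and for PLK1 (21.8), CDCA3 (0.907) and ASF1B (6.39) in PLC, and among other named genes below the sum for FOXM1 (8.30), E2F2 (1.63) and CDKN1A (13.8) in PLC and CCNB2 (4.84), CDKN2C (3.95), EXO1 (1.38) and CDKN1A (10.3) in 97H. The mean of ALB was -0.02 without the PLC control and -0.34 without the 97H combination (range over left-out libraries -0.34 to 2.39), those of IRF9 (-0.26 to 1.84) and APOA2 (-0.18 to 1.98) also crossed 0, and HIST1H2BG in PLC was -0.65 with a pseudocount of 0.1. The cause was not tested. Depth in reads is unknown, which limits what low genes can show.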
